A study of Mus musculus with 9 samples.

Results

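Agr2, Agr3 and 5 airway mucins (Muc5b, Muc5ac, Muc16, Muc1 and Muc4) were examined in RNA-seq of the mouse main olfactory epithelium. These 7 genes of the 55291 in the table were found by their symbols, and all 7 passed the filter of at least 10 counts summed over the 9 mice, as 23225 genes did. Agr2 and Agr3 were chosen by their own values, because the neighboring genes differed in opposite directions between Ms4a6c knockout and wild-type mice. That comparison is therefore given below for all 7 genes as a description, without a test.

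The 3 genotypes wild type, Ms4a6c knockout and Ms4a cluster knockout were compared, with 3 mice in each, all on the C57BL/6 background and 8 to 12 weeks old. Wild-type mice were littermate controls. Ms4a6c-/- mice were made by homologous recombination, and Ms4a cluster-/- mice carry a CRISPR/Cas9 deletion of the gene cluster that contains Ms4a6c. Each library was made from polyadenylated RNA of dissected tissue, so that the support cells, neurons, glands and ciliated cells of the epithelium were measured together. The study ties these libraries to figures that it cites where it introduces the knockout lines. It places Ms4a proteins in necklace olfactory sensory neurons and Ms4a1 in a different, sparse population of such neurons. It also names cells outside the olfactory system, such as B lymphocytes and other immune cells.

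Agr2 and Agr3 encode protein disulfide isomerases that reside in the endoplasmic reticulum, where such enzymes form and rearrange the disulfide bonds of secreted proteins. Agr2 is best known from mucus-producing cells, in which mucin production depends on it, and Agr3 is known from multiciliated airway cells. Muc5b and Muc5ac are secreted mucins whose disulfide-linked polymers give mucus its gel. Muc1, Muc4 and Muc16 are transmembrane mucins that stay attached to the surface of epithelial cells, and all of these proteins are heavily O-glycosylated.

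Agr3 and Agr2 lie next to each other on the plus strand of chromosome 12 (build GRCm38), Agr3 at chr12:35925620-35949736 and Agr2 at chr12:35992907-36004087, with 43.2 kb between the end of Agr3 and the start of Agr2. The promoters of both genes are shown because the pair differed in opposite directions over a short distance of the chromosome. Each sequence runs 5′ to 3′ from 250 bases before to 50 bases after the RefSeq start (GRCm38.p6, plus strand), at chr12:35992675-35992974 for Agr2 and at chr12:35925371-35925670 for Agr3. Capitals mark matches, on either strand, to the searched motifs TATAAA (of core promoters), CCAAT (bound by NF-Y), TGTTTAC (forkhead), GTTGCNA (RFX half-site) and ACGTG (XBP1 core).

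Agr2 promoter: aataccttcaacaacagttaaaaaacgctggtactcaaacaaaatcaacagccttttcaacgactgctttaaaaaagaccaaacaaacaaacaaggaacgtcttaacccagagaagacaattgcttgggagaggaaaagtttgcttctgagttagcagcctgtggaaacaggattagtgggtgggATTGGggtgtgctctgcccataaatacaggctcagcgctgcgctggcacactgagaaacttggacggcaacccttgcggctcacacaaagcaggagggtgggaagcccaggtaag

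Agr3 promoter: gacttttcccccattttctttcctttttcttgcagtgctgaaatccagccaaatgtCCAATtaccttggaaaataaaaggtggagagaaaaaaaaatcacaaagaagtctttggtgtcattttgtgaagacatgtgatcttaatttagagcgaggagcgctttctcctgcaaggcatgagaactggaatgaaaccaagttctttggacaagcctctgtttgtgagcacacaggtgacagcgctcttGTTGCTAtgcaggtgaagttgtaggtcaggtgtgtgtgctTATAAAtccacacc

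The Agr2 window held 1 match, to CCAAT on the minus strand, 65 bases before the start. The Agr3 window held CCAAT 194 bases before the start, GTTGCNA 4 bases before it and TATAAA 36 bases after it. Neither window held TGTTTAC or ACGTG. Of 32851 promoter windows of the same length, 37.4% held CCAAT, 13.6% TATAAA, 10.4% GTTGCNA, 3.65% TGTTTAC and 19.6% ACGTG, and none of the searched motifs overlapped another in these sequences. Matches are letters in a window and were not tested as binding sites. The longest transcripts of Agr2 and Agr3 shared no exact run longer than 17 bases, and no tested gene was at least 90% identical to a member over 100 bases or more.

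Library totals ranged from 13954591 to 21987174 expected counts, and levels are given as CPM, each count relative to its library's TMM-scaled total. The labels were checked with Ms4a6c, which had 53.95 to 90.34 counts in wild-type mice, at most 2.35 in Ms4a6c knockout mice and 0 in the Ms4a cluster knockout mice. Olfactory tissue markers were abundant in every mouse, with Omp, of mature olfactory sensory neurons, at 4017.8 to 5214.8 CPM and Cyp2g1, of sustentacular support cells, at 4383.1 to 5982.8 CPM. Wild-type mouse 1 and cluster knockout mouse 2 stood apart, because the nasal gland transcript Bpifb9b took 10.4% and 10.2% of their counts. In the other mice no gene took more than 3.28%. The TMM factors of these 2 libraries were 0.7018 and 0.7041, against 1.071 to 1.126 in the others, and some results are given with and without them. In RNA from whole tissue, fewer cells of a type and less RNA per cell cannot be told apart.

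Per kilobase of the longest annotated transcript, Agr2 was the most abundant of the 7 genes. Its wild-type level was 226 ± 4.98 CPM per kb (SD, n = 3 mice), followed by Agr3 at 29.8 ± 1.37, Muc5b at 25.5 ± 3.16, Muc1 at 14.1 ± 3.14, Muc16 at 10.3 ± 1.28, Muc4 at 4.77 ± 0.706 and Muc5ac at 0.159 ± 0.171. The wild-type ranges of Agr3 and Muc5b overlapped, as did those of Muc1 and Muc16, whereas the other neighbors in this order were separated in all 3 mice. In Ms4a6c knockout mice Agr3 stood at 17.3 ± 0.976 CPM per kb and Muc5b at 23.2 ± 1.85, so that Muc5b was above Agr3 in each of those mice. In Ms4a cluster knockout mice their means were 26.2 ± 1.61 for Agr3 and 25.3 ± 5.79 for Muc5b, with overlapping ranges.

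Agr2 was measured at 204, 210 and 201 CPM in the wild-type mice, at 199, 208 and 206 CPM in the Ms4a cluster knockout mice, and at 250, 251 and 260 CPM in the Ms4a6c knockout mice. All 3 Ms4a6c knockout mice were above all 6 other mice, and the wild-type and cluster knockout ranges overlapped. The Ms4a6c knockout mean was 1.24 times the wild-type mean, a log2 fold change of 0.31 ± 0.05 (SE). Agr2 was also the least variable member. Its pooled within-genotype SD was 0.03 on the log2(CPM + 0.5) scale, a spread that only 2.41% of the 1330 genes within 2-fold of its level fell below. This spread was computed in part from the values that chose Agr2, so it is not independent of that choice.

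Agr3 was measured at 24.5, 25.9 and 23.6 CPM in wild-type mice, at 22, 20.1 and 22.7 CPM in the cluster knockouts, and at 13.7, 14 and 15.2 CPM in Ms4a6c knockout mice. The 3 genotypes did not overlap, with wild type highest, the cluster knockout between and the Ms4a6c knockout lowest. The Ms4a6c knockout mean was 0.58 times the wild-type mean, a log2 fold change of -0.79 ± 0.08 (SE). These 2 differences chose the genes and support nothing further. In this comparison 0.22% of all tested genes were called higher and 0.215% lower by edgeR's quasi-likelihood test at an adjusted p under 0.05, and 9.72% of genes lay wholly above and 8.56% wholly below the wild-type values.

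**Figure D1:**
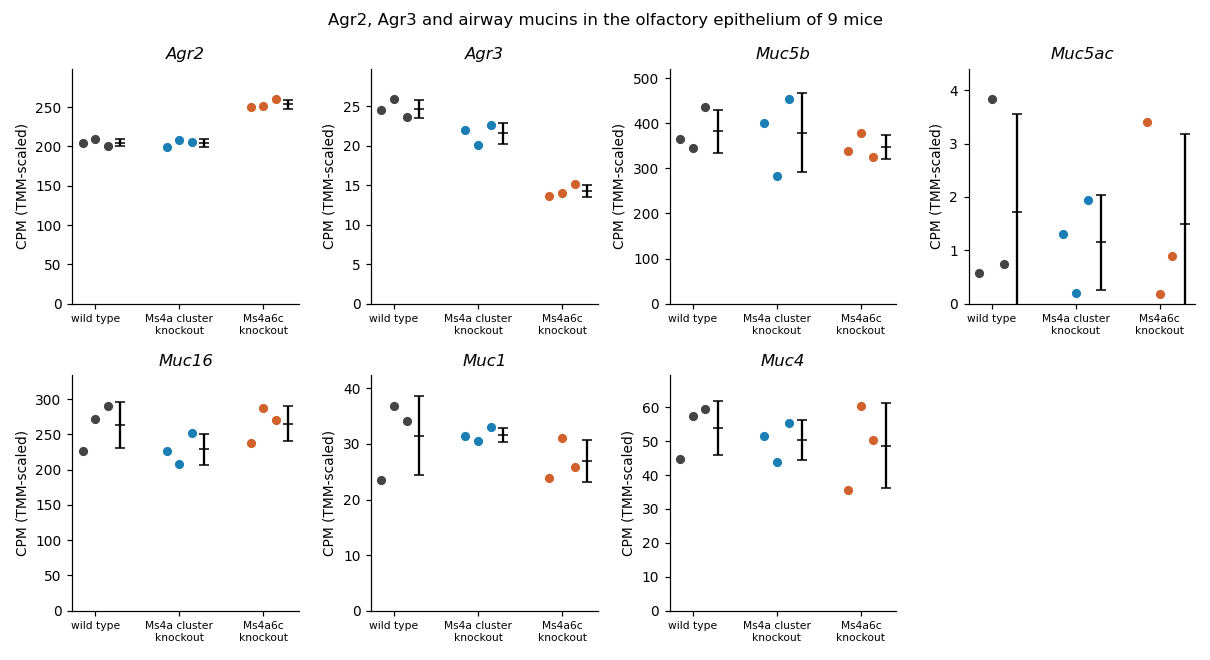
Level of each of the 7 genes, in TMM-scaled CPM, in the 3 mice of each genotype (points), with the group mean and SD beside them (bars, cut at 0 for Muc5ac). The Ms4a6c knockout mice sit above the others for Agr2 (250 to 260 CPM) and below the others for Agr3 (13.7 to 15.2 CPM), whereas the mucin values of the genotypes overlap.

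The ratio of Agr2 to Agr3 counts within a mouse does not depend on how libraries are scaled. It was 8.34, 8.12 and 8.52 in the wild-type animals, 9.06, 10.3 and 9.06 in the cluster knockouts, and 18.2, 18 and 17.1 in Ms4a6c knockout mice. The group means were 8.33 ± 0.198, 9.48 ± 0.728 and 17.8 ± 0.599 (SD, n = 3 mice), and no 2 genotypes overlapped. The separation of the Ms4a6c knockout in this ratio follows from the choice of the genes and adds no support. Per kilobase of transcript, Agr2 was 7.39 to 7.76 times as abundant as Agr3 in wild-type, 8.25 to 9.40 times in cluster knockout and 15.6 to 16.6 times in Ms4a6c knockout mice. The scale does move the separate values. With plain library sizes, the 2 log2 fold changes in the Ms4a6c knockout were 0.49 for Agr2 and -0.60 for Agr3, on a scale where the median of all tested genes was at 0.18.

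**Figure D2:**
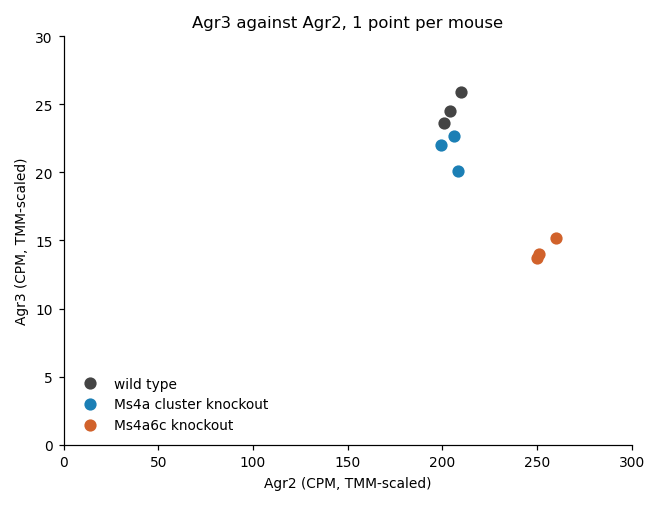
Agr3 level (vertical axis) against Agr2 level (horizontal axis), both in TMM-scaled CPM, with 1 point per mouse. The 3 Ms4a6c knockout mice lie together at the lower right, and the cluster knockout mice lie at the Agr2 level of wild-type mice and below them for Agr3.

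The cluster knockout also lacks Ms4a6c, and its comparison with wild type did not enter the choice of genes, although the wild-type mice are shared with the comparison that did. None of the 7 genes passed an adjusted p of 0.05 by the quasi-likelihood method of edgeR (Benjamini-Hochberg over 23225 genes), where 6 genes, or 0.0258%, passed. Agr2 differed by -0.01 on the log2 scale (95% interval -0.12 to 0.11, adjusted p = 1). Agr3 was lower by 0.19 (log2 fold change -0.19 ± 0.08, SE, 95% interval -0.36 to -0.01, unadjusted p = 0.042, adjusted p = 0.968). Agr3 was lower in 3 of 3 cluster knockout mice than in any wild-type mouse, as were 5.16% of all tested genes, and 4.71% of genes were wholly higher. It was the 1 member of 7 whose unadjusted p was under 0.05, beside 4.93% of the genes tested overall. In DESeq2, too, 0 of the 7 genes passed.

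Between the 2 knockouts, Agr2 in the cluster knockout was 0.804 times and Agr3 1.52 times the level in the Ms4a6c knockout, with no overlap for either gene (log2 differences of -0.31 ± 0.05 and 0.60 ± 0.08, SE). Of all tested genes, 8.11% were wholly lower and 7.89% wholly higher in the cluster knockout than in the Ms4a6c knockout. This contrast shares the Ms4a6c knockout mice with the choice of the genes and was not tested.

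Muc5b, the more abundant of the secreted mucins (chr7:141839070-141873084), was measured at 366, 344 and 435 CPM in wild-type mice, 401, 284 and 453 CPM in cluster knockout mice, and 339, 378 and 325 CPM in Ms4a6c knockout mice. The groups overlapped, and the highest and the lowest of the 9 values were both found among the cluster knockout mice. The log2 fold change against wild type was -0.01 ± 0.16 (SE, 95% interval -0.36 to 0.34, edgeR adjusted p = 1) in the cluster knockout and -0.14 ± 0.16 in the Ms4a6c knockout.

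Muc5ac (chr7:141788972-141819231), the neighbor of Muc5b on chromosome 7, had few and scattered counts. The wild-type mice had 8, 69 and 13 counts, the cluster knockout mice 26, 2 and 39, and the Ms4a6c knockout mice 83, 3 and 14. A cluster knockout mouse and an Ms4a6c knockout mouse were thus at or under 3 counts, the smallest count taken as different from 0, and each genotype held at least 1 mouse with 26 or more. The pooled SD was 1.11 on the log2 scale, larger than that of 97.9% of 3031 genes at a like level, whose median SD was 0.30. These mice of one genotype thus differed more from each other than the groups did. The cluster knockout differed from wild type by -0.50 ± 0.97 (SE, log2; 95% interval -2.67 to 1.66, edgeR adjusted p = 1), an interval that leaves the direction undetermined. That value was 0.88 without wild-type mouse 2. In the Ms4a6c knockout the log2 difference of -0.16 ± 0.95 was 1.23 without the same wild-type mouse and -1.68 without Ms4a6c knockout mouse 1.

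Muc16 (chr9:18495455-18674530, minus strand), the largest of the transmembrane mucins by transcript length, was measured at 227, 272 and 290 CPM in wild-type mice, 227, 208 and 252 CPM in cluster knockout mice, and 238, 288 and 270 CPM in Ms4a6c knockout mice. The cluster knockout differed by -0.20 ± 0.11 (SE, log2; 95% interval -0.44 to 0.04, edgeR unadjusted p = 0.0977, adjusted p = 0.97) with overlapping groups, and the Ms4a6c knockout by 0.01 ± 0.11.

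Muc1 (chr3:89229057-89233381), whose cytoplasmic tail takes part in signaling, was measured at 23.5, 36.8 and 34.2 CPM in wild-type mice, 31.4, 30.5 and 33.0 CPM in cluster knockout mice, and 23.8, 31.1 and 25.9 CPM in Ms4a6c knockout mice. The lowest and the highest value were both wild type. The log2 fold change was 0.00 ± 0.15 (SE, 95% interval -0.34 to 0.35, edgeR adjusted p = 1) in the cluster knockout and -0.23 ± 0.15 in the Ms4a6c knockout.

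Muc4 (chr16:32735886-32782391), which can bind the receptor Erbb2, was measured at 44.7, 57.4 and 59.4 CPM in wild-type mice, 51.4, 43.9 and 55.4 CPM in cluster knockout mice, and 35.5, 60.3 and 50.2 CPM in Ms4a6c knockout mice. The groups overlapped, and the widest range was within the Ms4a6c knockout. The log2 fold change was -0.10 ± 0.18 (SE, 95% interval -0.50 to 0.30, edgeR adjusted p = 1) in the cluster knockout and -0.15 ± 0.18 in the Ms4a6c knockout, where it was 0.04 without mouse 1. Muc4 overlaps the oppositely oriented mucin gene Muc20 at its 3′ end. The libraries were directional, but whether the counting used strand is not given in the sources used here, and Muc4 was the 1 member whose expected counts were not whole numbers.

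**Figure D3:**
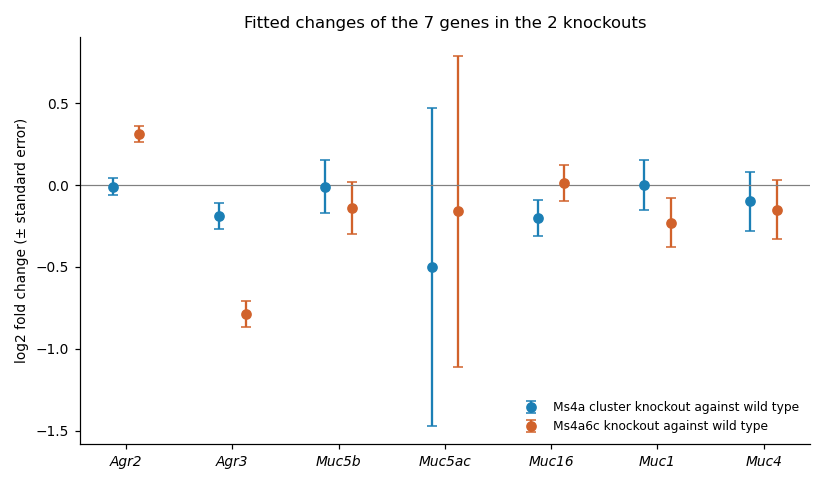
Fitted log2 fold change against wild type, with its standard error, for the 7 genes in the Ms4a cluster knockout (blue) and the Ms4a6c knockout (orange), which share their wild-type mice. Agr2 at 0.31 and Agr3 at -0.79 in the Ms4a6c knockout are the values that chose these genes, and Muc5ac has by far the longest error bars.

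Over the 7 genes the median log2 fold change was -0.10 in the cluster knockout, beside 0.01 for all tested genes, and -0.15 in the Ms4a6c knockout, beside a median of all tested genes that rounds to 0. The median absolute change of the members was 0.10 in the cluster knockout, beside 0.13 for all genes.

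The 3 transmembrane mucins varied together among mice of the same genotype. After the group means were removed, the Pearson correlation of log2(CPM + 0.5) over the 9 mice was 0.91 for Muc16 and Muc4, 0.85 for Muc16 and Muc1 and 0.80 for Muc1 and Muc4. Without the 2 mice led by Bpifb9b these values were 0.91, 0.75 and 0.88. They are descriptions of 21 pairs in which all points share their libraries, and depth and scaling enter both sides of a pair. Agr2 and Agr3 had a correlation of 0.43 within genotypes, 0.96 without those 2 mice and 0.99 on plain library sizes. Agr2 and Muc5b had a correlation of -0.57, which turned to 0.91 on plain library sizes. Every one of the 21 correlations was positive on that scale.

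Each of the mice led by Bpifb9b held the lowest values of the transmembrane mucins within its own genotype. Over all mice, 1 of the 7 members was lower in both led mice than in any other mouse and 0 were higher. Ms4a6c knockout mouse 1 had a lower Muc4 than either led mouse, at 35.5 CPM, and a Muc1 of 23.8 CPM. The share of all tested genes with such a split was not counted. Wild-type mouse 1 had the lowest Muc16, Muc1, Muc4 and Muc5ac of its genotype, at 227, 23.5, 44.7 and 0.569 CPM, and cluster knockout mouse 2 the lowest of these 4 genes in its own, at 208, 30.5, 43.9 and 0.199 CPM. Muc5b was lowest in cluster knockout mouse 2 at 284 CPM but not in wild-type mouse 1 at 366 CPM. The Ms4a6c knockout mouse with 3.28% Bpifb9b had the highest Muc5b, Muc16, Muc1 and Muc4 of its genotype. Agr2, at 204 and 208 CPM in the 2 led mice, lay within 199 to 210 CPM with the other mice of both genotypes. The part of gland content in these values was not tested.

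For each gene the 3 genes with the most similar pattern over the 9 mice, after removal of group means, were sought among 16538 genes with a mean of at least 1 CPM. The nearest were Aard (Pearson r = 0.98), Krt7 (0.97) and Vapa (0.95) for Agr2, and Cdh15 (0.98), Olfr399 (0.98) and Rdh13 (0.97) for Agr3. For the secreted mucins they were Mprip, Zfhx2 and Pcdhb21 for Muc5b (each 0.98) and D930020B18Rik (0.98), Olfr57 (0.98) and Nol10 (0.97) for Muc5ac. For the transmembrane mucins they were Coro2b (0.98), Maneal (0.98) and Iqcd (0.97) for Muc16, Efcab12 (0.99), Prrg3 (0.98) and Sgsh (0.97) for Muc1, and Olfr1019, Rinl and Lasp1 (each 0.98) for Muc4. No member was among the 3 nearest genes of another. These are the highest of 16538 correlations over 9 mice, and the height reached by unrelated genes was not computed. Muc5ac, at 2 to 83 counts per mouse, also gave values of 0.97 to 0.98, so the names are a description and not evidence of shared expression.

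The chromosomal surroundings of Agr2 and Agr3 were examined because the pair differed in opposite directions. A window of 2 Mb held 37 annotated genes, of which 12 were tested. None of the 10 other tested genes was called in either knockout by edgeR at an adjusted p under 0.05. Tspan13, a tetraspanin gene that starts 49.6 kb beyond Agr2, was at 181 ± 16.8 CPM (SD, n = 3) in wild-type, 179 ± 10.4 in cluster knockout and 178 ± 3.15 in Ms4a6c knockout mice. Snx13, a sorting nexin gene, differed by -0.07 ± 0.07 (SE, log2) and -0.10 ± 0.07 in the cluster and Ms4a6c knockouts. Of these 10, 1 had an unadjusted p under 0.05 in the Ms4a6c knockout, beside 10.5% of all tested genes, and is named here after its value was seen. Ahr, which encodes the aryl hydrocarbon receptor, a ligand-activated transcription factor, starts 458 kb from the Agr2 start on the side of Agr3 and was at 26.7, 29.3 and 30.4 CPM in wild-type, 30.8, 22 and 27.5 CPM in cluster knockout and 16.9, 18.1 and 20.3 CPM in Ms4a6c knockout mice. Its Ms4a6c knockout values were wholly below wild type (log2 fold change -0.65 ± 0.12, SE, edgeR unadjusted p = 0.000314), but it did not pass the adjustment over all genes (adjusted p = 0.0634). In the cluster knockout Ahr differed by -0.10 ± 0.12.

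**Figure D4:**
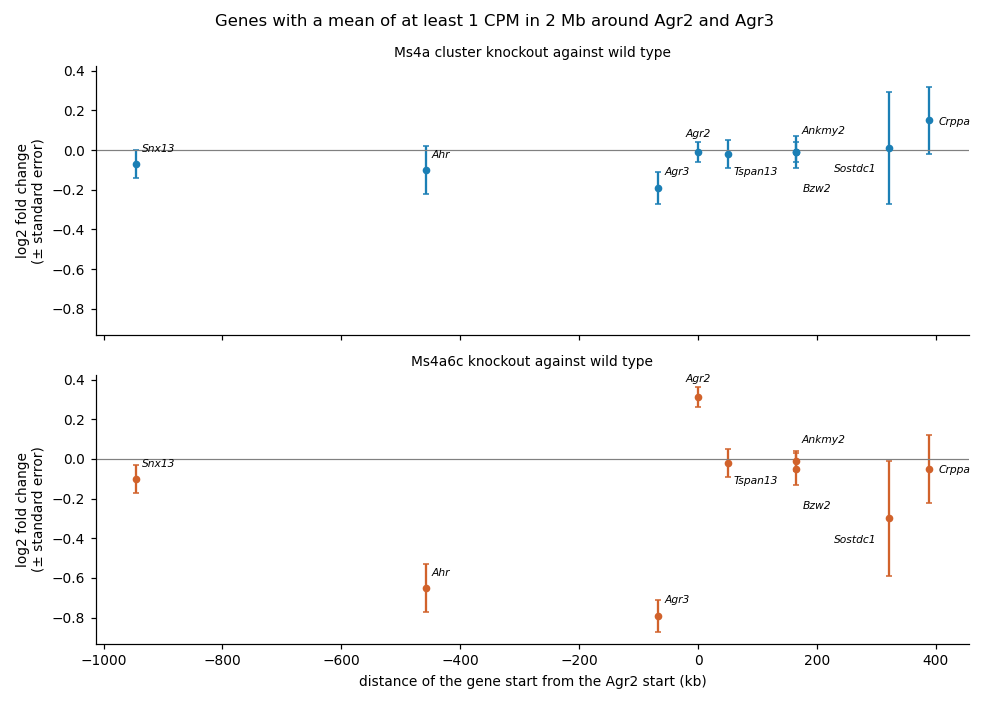
Log2 fold change against wild type, with its standard error, of the genes with a mean of at least 1 CPM around Agr2 and Agr3, placed by the distance of their start from the Agr2 start in kb, for the cluster knockout (top) and the Ms4a6c knockout (bottom). In the lower panel Agr2 lies above 0, Agr3 and Ahr lie below -0.5, and Tspan13, which starts 49.6 kb beyond Agr2, lies at -0.02.

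Other genes of mucus production were read from fixed lists, as counts called by edgeR's quasi-likelihood test at an adjusted p under 0.05. Counts at an unadjusted p under 0.05 are given beside them and are to be read against the 4.93% of all tested genes that reached it in the cluster knockout and 10.5% in the Ms4a6c knockout. Of 12 tested mucins outside the 7, none was called in either knockout, and 0 and 2 had an unadjusted p under 0.05 in the cluster and Ms4a6c knockouts. The most abundant were Cd164, a membrane sialomucin, the gel-forming Muc2 and Podxl, a membrane sialomucin. Muc2 was at 213, 202 and 247 CPM in wild-type, 213, 160 and 242 CPM in cluster knockout and 246, 281 and 273 CPM in Ms4a6c knockout mice, and its log2 difference of 0.27 ± 0.14 (SE) in the Ms4a6c knockout was not called (adjusted p = 0.519) and overlapped wild type. Cd164 differed by -0.09 ± 0.11 and Podxl by -0.24 ± 0.11 there.

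Among 21 tested members of the protein disulfide isomerase family outside Agr2 and Agr3, including their oxidases, none was called in either knockout, and 3 and 1 had an unadjusted p under 0.05 (over all genes, 4.93% and 10.5%). P4hb, the classical protein disulfide isomerase, was at 764 CPM in wild-type mouse 1 and 732 CPM in cluster knockout mouse 2, against 445 to 484 CPM in the other mice. Pdia3, an isomerase of glycoproteins, differed by -0.03 ± 0.07 and 0.08 ± 0.07 (SE, log2) in the cluster and Ms4a6c knockouts, and Pdia6 by 0.08 ± 0.13 and 0.04 ± 0.13. The list had a median of -0.01 in both comparisons.

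None of the 22 tested genes of the goblet and mucous cell list was called in either knockout, and 0 and 2 had an unadjusted p under 0.05. In the Ms4a6c knockout 2 lay wholly above and 1 wholly below wild type, beside 9.72% and 8.56% of all tested genes. Tmprss2 was at 98.7, 89.8 and 89 CPM there, against 71.9 to 80 CPM in wild-type mice (log2 fold change 0.28 ± 0.06, SE, edgeR adjusted p = 0.12). Xbp1, a transcription factor of the unfolded protein response, was at 291 and 294 CPM in the 2 mice led by Bpifb9b and at 145 to 168 CPM in the other 7. Pigr, which carries immunoglobulin A across epithelia, was at 141 and 179 CPM in those 2 mice and at 47.5 to 82.8 CPM in the others. In all, 9 of the 22 genes were higher in both of those mice than in any other mouse and 2 were lower. This split is not particular to the list, and its share over all tested genes was not counted. Of 21 disulfide isomerase family genes 8 were higher and 1 lower, of 30 O-glycosylation genes 9 and 7, and of 13 mature neuron genes 0 and 7. These counts and the next 2 genes were picked after their values were seen. Spdef, a transcription factor of goblet cells, was at 21.7 and 22.7 CPM there against 6.56 to 9.97 CPM elsewhere, and Galnt6, which starts O-glycan chains, was at 17.1 and 15.8 CPM against 21.3 to 24.1 CPM. The summed level of the list ran from 559 to 877 CPM in wild-type, from 564 to 866 CPM in cluster knockout and from 570 to 635 CPM in Ms4a6c knockout mice. Of the goblet genes of the list, Fcgbp, a mucus-associated protein, was at 6.67 to 25.6 CPM and Tff2, a trefoil peptide, at 9.47 to 18.1 CPM, whereas Tff3 was at 0 in every mouse and Clca1 in 7 of the 9. Foxa2, Tff1, Zg16 and Best2 and the club cell secretoglobins Scgb1a1 and Scgb3a2, which the list also holds, stayed under the filter.

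**Figure D5:**
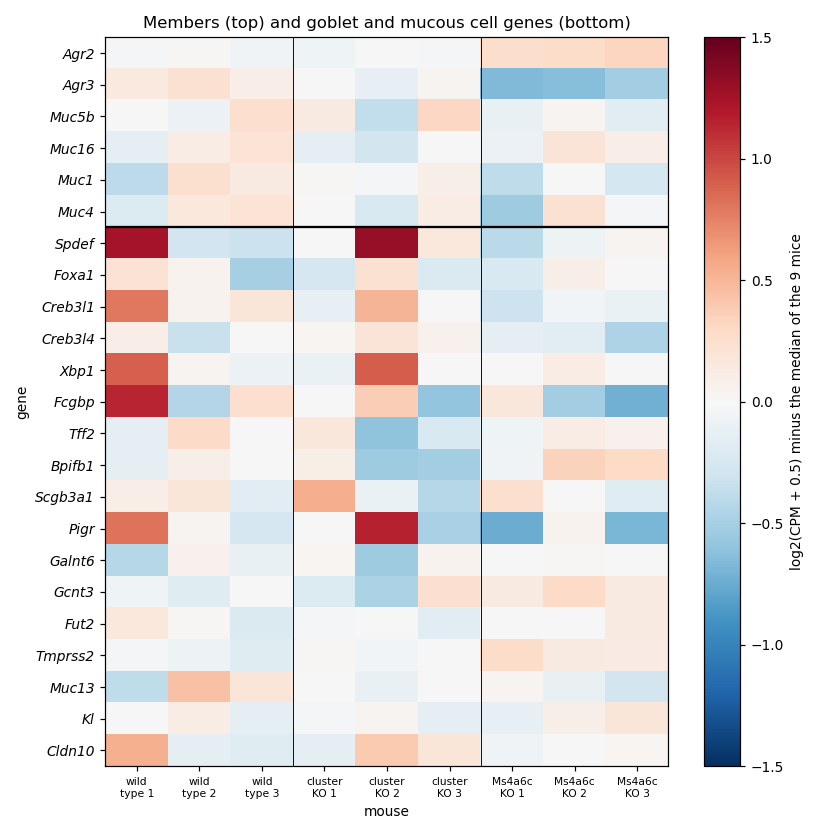
Log2(CPM + 0.5) of 6 of the 7 genes (top; Muc5ac is left out) and of the 17 goblet and mucous cell genes with a mean of at least 5 CPM (bottom), each relative to its median over the 9 mice (columns). Spdef, Xbp1 and Pigr are highest and Galnt6 is lowest in wild-type mouse 1 and cluster knockout mouse 2, where Agr2 (204 and 208 CPM) is near its median, and Agr2 and Agr3 separate the Ms4a6c knockout mice at the right.

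Enzymes of mucin O-glycosylation and genes of granule release gave the same count. Of 30 tested O-glycosylation genes none was called in either knockout, with 1 and 6 at an unadjusted p under 0.05, and Galnt1, which starts O-glycan chains, differed by -0.07 ± 0.06 and -0.02 ± 0.06 (SE, log2). Of 17 tested genes of mucin granule release none was called, with 1 and 3 at an unadjusted p under 0.05, and Vamp2, a vesicle fusion protein, differed by 0.01 ± 0.08 and -0.15 ± 0.08. Of 10 tested partners of transmembrane mucins, such as receptors and sheddases, none was called, with 1 and 0 at an unadjusted p under 0.05. Their most abundant member Ctnnb1, the adherens junction protein to which the Muc1 tail can bind, differed by 0.01 ± 0.07 and -0.06 ± 0.07.

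Markers of the cell types that could hold these transcripts were read in the same way. None of 27 tested multiciliated cell genes was called, and their summed level was 1350.5 to 1503.9 CPM in wild-type, 1319.8 to 1483.8 CPM in cluster knockout and 1272.5 to 1569.7 CPM in Ms4a6c knockout mice. In the Ms4a6c knockout 3 of the 27 lay wholly above and 3 wholly below wild type, beside 9.72% and 8.56% of all tested genes. There 5 of the 27 had an unadjusted p under 0.05 by edgeR, beside 10.5% of all tested genes. The most abundant, the axonemal Ccdc40, differed there by 0.06 ± 0.08 (SE, log2), Foxj1, the transcription factor of multiciliated cells, by 0.18 ± 0.11 and the dynein heavy chain Dnah5 by 0.09 ± 0.20. The 3 that lay wholly above were Tekt4 (0.67 ± 0.22), Dnaic1 (0.40 ± 0.18) and Ccno (0.32 ± 0.15). The 3 that lay wholly below were Dynlrb2 (-0.32 ± 0.09), Tppp3 (-0.21 ± 0.07) and Spag17 (-0.67 ± 0.24), beside -0.79 ± 0.08 for Agr3. All 6 were named after their values were seen, and the median log2 fold change of the list was -0.01. None of the 27 genes was at 0 in every mouse. The part of ciliated cell content in the Agr3 difference was not tested.

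The summed level of sustentacular cell genes was 26666.4 to 28392.3 CPM in wild-type, 26324.0 to 29333.2 CPM in cluster knockout and 32458.4 to 34273.5 CPM in Ms4a6c knockout mice, a sum made up mostly of a few abundant genes such as Cyp2a5, Ugt2a1 and Cyp2g1. All 12 genes of the list were tested, none was at 0 and none was called. In the Ms4a6c knockout 5 lay wholly above and 2 wholly below wild type, beside 9.72% and 8.56% of all tested genes. There 4 of the 12 had an unadjusted p under 0.05 by edgeR, beside 10.5% of all tested genes. The median log2 fold change there was 0.12. Cyp2a5, an odorant-metabolizing cytochrome and the most abundant of them, differed by 0.41 ± 0.12 (SE, log2), Cyp2g1 by 0.32 ± 0.10 and Ugt2a1 by 0.10 ± 0.10, beside 0.31 ± 0.05 for Agr2. The 2 that lay below were Ermn (-0.41 ± 0.10) and Aldh1a7 (-0.12 ± 0.06), named after their values were seen. The part of support cell content in the Agr2 difference was not tested.

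None of 23 tested nasal and Bowman gland genes was called in either knockout. Unadjusted edgeR p-values below 0.05 were found for 7 gland genes in the Ms4a6c knockout, beside 10.5% of all tested genes. In the cluster knockout they were found for 2, beside 4.93%. The median log2 fold change of the gland list was -1.20 in the Ms4a6c knockout and 0.05 in the cluster knockout. Neither this median nor these p-values are given without the 2 mice led by Bpifb9b, and gland genes differed widely within wild type. Obp2a, named after its value was seen, was at 31561.0, 411 and 29 CPM in wild-type mice and at 146, 95.8 and 158 CPM in Ms4a6c knockout mice. Against wild type, 2 gland genes lay wholly above and 0 wholly below in the Ms4a6c knockout, beside 9.72% and 8.56% of all tested genes. The summed level of the gland list ran from 17954.4 to 351162.9 CPM in wild-type, from 15250.7 to 362099.6 CPM in cluster knockout and from 16799.1 to 50412.7 CPM in Ms4a6c knockout mice. Without the 2 mice led by Bpifb9b, the log2 fold changes in the Ms4a6c knockout were 0.31 for Agr2 and -0.79 for Agr3, the same as with them. None of 8 B and plasma cell genes was called, with summed levels of 23.8 to 163 CPM in wild-type and 101 to 171 CPM in Ms4a6c knockout mice.

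The 3 genes Scel, Tgm3 and Gng13 of the cell type lists were called in the Ms4a6c knockout by edgeR's quasi-likelihood test. Scel, a protein of cornified envelopes, fell from 4.44 to 4.76 CPM in wild-type mice to 1.24 to 1.76 CPM (log2 fold change -1.56 ± 0.18, SE, adjusted p = 0.00323). Tgm3, a transglutaminase of the same structures, rose from at most 0.853 CPM to between 3.12 and 5.09 CPM (3.20 ± 0.44, adjusted p = 0.00953). Gng13, a G protein subunit of olfactory sensory neurons, fell from at least 347 CPM to at most 203 CPM (-0.89 ± 0.09, adjusted p = 0.00121). No other gene of the squamous and basal list (9 tested) or of the mature neuron list (13 tested) was called in either knockout.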

How the data were processed

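Directional libraries of polyadenylated RNA from 9 mice were sequenced. Per the submitters' processing notes the authors used STAR 2.6.1 and RSEM 1.3.1 (mm10), and per their methods GENCODE M25. The deposited values are the authors' expected counts, RSEM estimates of reads per gene, without normalization or pooling. Here they were rounded, scaled by TMM and fitted in 1 model of 3 genotypes by edgeR 4.0.16 (quasi-likelihood, R 4.3.3), on genes whose counts over the 9 mice summed to 10 or more, with Benjamini-Hochberg adjustment over all of them. The procedure was also run on simulated counts drawn from the levels and spread estimated here. Such counts cannot show how it handles the libraries led by Bpifb9b, and no result here rests on that run. Intervals are 95% intervals of the fitted log2 fold change. DESeq2 1.42.0, other scalings, filters and left-out mice were alternatives. Coordinates and transcript lengths were taken from GENCODE M21 (also GRCm38), matched by transcript for 99.6% of genes. Promoters came from RefSeq (GRCm38.p6). They were given for 5 of the 7 genes, and Muc5b and Muc5ac were not matched. Correlations and near-copies used Python 3.11 and blast 2.17.0.

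The members and gene lists were chosen with earlier results of these data known. Named were the members, the 3 genes nearest to each in pattern, the targeted gene, and from each list the called genes or otherwise the most abundant (up to 3); exceptions are identified. Same-numbered mice did not deviate together (mean correlations over 16539 genes of -0.38, -0.03 and 0.01 between genotype pairs), so replicate numbers were taken as names. Deviations within a genotype cancel, and the mice led by Bpifb9b carry different replicate numbers. The check therefore cannot exclude that mice of different genotypes shared litters. Replicates are separate mice.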

Additional observations from a re-analysis of the deposited data

How the results depend on the processing

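None of the 7 genes was called in the cluster knockout under any of the 14 alternatives, 2 of which (plain library sizes, and leaving out both mice led by Bpifb9b) were chosen after seeing the data. The count of all genes called there was 6. It was 18 in DESeq2, 2 with the replicate number as a block and 3 to 7 when single mice were left out (3 without wild-type mouse 2 or wild-type mouse 3). In the Ms4a6c knockout 101 genes were called, against 345 in DESeq2, 182 without a filter, 350 without both led mice and 59 to 143 with single mice left out (59, 60 and 64 without wild-type mouse 2, wild-type mouse 3 and Ms4a6c knockout mouse 3). With the replicate block it was 71, and the block left Agr2 at 0.31 and Agr3 at -0.79. With plain library sizes Agr2 was 0.49 and Agr3 -0.60 there. Without single mice Agr2 ran from 0.29 to 0.33 and Agr3 from -0.83 to -0.75.

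Signs turned for members near 0 in the cluster knockout. Muc1 (0.0042) was -0.00053 in DESeq2, -0.00057 with its size factors, -0.03 with plain library sizes, -0.14 without both led mice, and -0.16 to 0.13 without single mice. Muc5b (-0.01) was 0.04 with plain library sizes, 0.13 without both led mice and -0.16 to 0.16 without single mice. Without single mice Agr2 (-0.01) ran from -0.02 to 0.01, and Muc5ac (-0.50) from -1.05 to 0.88. In the Ms4a6c knockout Muc5b (-0.14) was 0.03 with plain library sizes, Muc16 (0.01) was -0.08 without both led mice, and without single mice Muc4 (-0.15) ran from -0.34 to 0.04, Muc16 from -0.08 to 0.09 and Muc5ac (-0.16) from -1.68 to 1.23. The correlation of Agr2 and Muc5b turned from -0.57 to 0.91 with plain library sizes. The cause was not tested.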
